A study of Mus musculus with 2 samples.

Results

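Core circadian clock genes were examined in cerebral cortex of mice that lack P4H-TM, the transmembrane prolyl 4-hydroxylase, and of wild-type mice. The set holds 10 genes, named by symbol, although earlier results of these data were known when it was chosen. They are the activators Arntl and Clock, and the repressor and output genes Per1, Per2, Per3, Cry1, Cry2, Nr1d1, Nr1d2 and Dbp. All 10 were on the arrays, out of 18193 genes measured, with 23 probe sets that are annotated to exactly 1 of these symbols. Cortical tissue was taken from naive male P4H-TM knockout (KO) mice and their male wild-type (WT) littermates, all 2.5 months old and on the C57BL/6J background. Neither genotype carried another allele or received a treatment according to the labels, and no restriction of the KO to a cell type is stated. RNA of 4 mice was pooled for each genotype and hybridised to 1 Affymetrix Mouse Genome 430 2.0 array, which makes 1 KO array and 1 WT array. As each genotype has a single array, the spread between mice is unknown, differences were not checked in replicates, and no p-value is given. The hour of day at which the mice were killed is not given in the sources used here.

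The circadian clock of mammals is a feedback loop of transcription that runs in nearly every cell, including neurons and glia of the cortex. The proteins ARNTL (also called BMAL1) and CLOCK bind together to E-box sequences and switch on the period and cryptochrome genes, whose proteins later return to the nucleus and shut ARNTL and CLOCK off. Another loop is formed by the nuclear receptors NR1D1 and NR1D2 (REV-ERB alpha and beta), which are themselves switched on through E-boxes and which repress Arntl through a sequence named RORE. Dbp is a clock output gene whose protein acts on D-box sequences. In many tissues Dbp, the Per genes and the Nr1d genes peak hours away from Arntl, though not all at the same phase. The question put to the arrays was whether the activators and the repressor and output genes differed between KO and WT cortex. It was also asked whether these groups differed in opposite directions, although genes within a group need not share a phase.

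The sequences through which the loop is known to act were looked up in the RefSeq promoter windows of assembly GRCm38.p6, which run from 250 bases before to 50 bases after each annotated start. Windows were found for 9 of the 10 genes (all but Per2), 13 windows in all. The motifs searched on both strands were the E-box CACGTG, the D-box TTANGTAA, the cyclic AMP response element TGACGTCA and the RORE, read as AANTN directly before GGTCA. No match in a clock gene overlapped another. The stretches of the 4 clock genes with a match are shown here because they are the members' own copies of these elements, 5′ to 3′ on the gene's strand, with the matched letters in capitals.
Per1, chr11:69098763-69098808, plus strand, E-box: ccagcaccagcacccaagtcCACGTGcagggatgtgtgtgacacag
Cry1, chr10:85185089-85185134, minus strand, E-box: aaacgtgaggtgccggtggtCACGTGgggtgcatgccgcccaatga
Per3, chr4:151044796-151044890, minus strand, D-box: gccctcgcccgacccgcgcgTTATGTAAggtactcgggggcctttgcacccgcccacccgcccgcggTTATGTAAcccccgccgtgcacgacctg
Arntl, chr7:113207528-113207557, plus strand, RORE: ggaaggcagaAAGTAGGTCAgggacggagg
The E-boxes of Per1 and Cry1 begin 166 and 60 bases before the start, the D-boxes of Per3 begin 205 and 158 bases before it, and the RORE of Arntl begins at base 28 after one of its annotated starts. Such letters occur in many promoters: an E-box was found in 7.15% of all 32851 windows, a D-box in 2.32%, a RORE in 0.606% and a cyclic AMP response element in 1.79%. Counted per gene, over 27025 genes with a window, the shares were 8.09%, 2.72%, 0.714% and 2.03% in the same order. No clock gene window held a cyclic AMP response element. A match is only a description of the letters, and its absence from a window says nothing about more distant sites.

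None of the 10 clock genes differed between KO and WT cortex by 1.2-fold or more on its brightest probe set. The brightest probe sets had log2 differences (KO minus WT) from −0.12 for Arntl to 0.13 for Per2, with a median of 0.02 over the 10 genes. In fold terms this is a range of 0.92 to 1.094. All 10 brightest probe sets had a mean signal above the median of all probe sets, 6.385 on the log2 scale, which served as the filter on low signal. Of the 11730 genes above this filter, 2.9% were at least 1.2-fold higher and 1.83% at least 1.2-fold lower in KO, and 0.631% and 0.0512% were so at 1.5-fold, so a count of 0 among 10 genes is close to what these shares give for any 10 genes. By direction, 5 clock genes had higher values in KO, 4 had lower values and 1 was equal, against 50.1% higher and 45.2% lower of all genes above the filter. The median over those genes was 0.01 and their 5th and 95th percentiles were −0.18 and 0.21, an interval that holds all 10 clock genes.

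**Figure D1:**
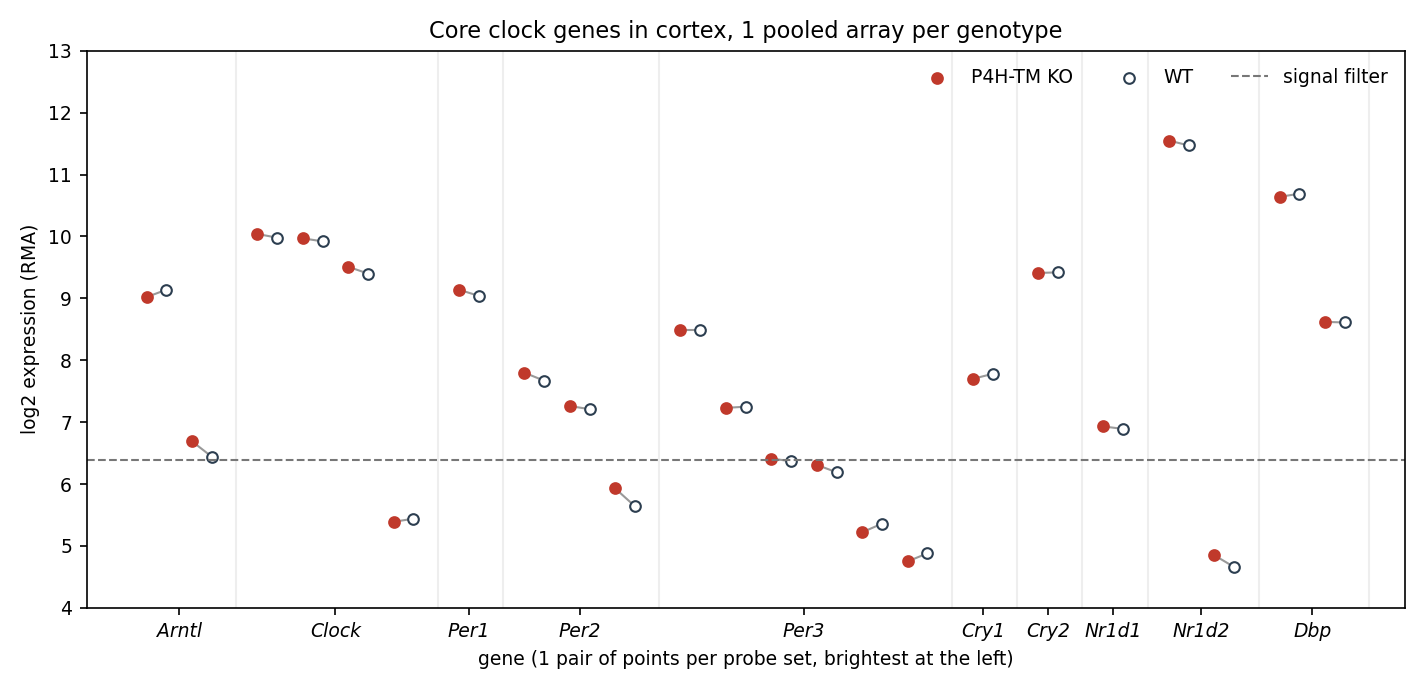
Log2 expression of every probe set of the 10 clock genes on the P4H-TM KO array (red points) and the WT array (open circles), grouped by gene along the horizontal axis with the brightest probe set at the left, and with a dashed line at the signal filter of 6.385. No error bars are drawn because each genotype has 1 array. Each pair of points is almost level, and the gaps that can be seen belong to dim probe sets such as that of Per2 at 5.93 in KO and 5.64 in WT.

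Arntl encodes the activator without which the loop stops in mice. Its brightest probe set had a log2 value of 9.02 in KO and 9.14 in WT, a difference of −0.12, and 26.7% of genes above the filter lay at least as far from 0. Its other probe set, dimmer but also above the filter, had 6.69 in KO and 6.44 in WT, a difference of 0.25. The probe sets of Arntl thus pointed in opposite directions, and the average over them was 0.065. Both sit on the same arrays and are not replicates.

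Clock encodes the partner of ARNTL, a protein that also acetylates histones. Its brightest probe set had 10.04 in KO and 9.98 in WT, and another had 9.97 in KO and 9.92 in WT. The next had 9.51 in KO and 9.40 in WT, so that the 3 probe sets of Clock above the filter differed by 0.06, 0.05 and 0.11. The remaining one, at 5.39 in KO and 5.44 in WT, lay below the filter and differed by −0.05. Clock was one of 2 clock genes whose probe sets above the filter all had the same sign.

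The period genes encode the proteins that carry the repressive signal back to the nucleus, and Per1 and Per2 are also induced directly by light, cyclic AMP and glucocorticoids in tissues where this has been studied. Per1 had 9.14 in KO and 9.04 in WT on its only probe set, a difference of 0.10, which 34.2% of genes above the filter reached or exceeded in size. Per2 had 7.80 in KO and 7.67 in WT on its brightest probe set, a difference of 0.13 that 23.6% of those genes reached in size. Its other probe sets had 7.26 and 5.93 in KO against 7.21 and 5.64 in WT, with differences of 0.05 and 0.29. All 3 probe sets of Per2 were thus higher in KO, and the last of them, below the filter, was the single probe set among the 23 that passed 1.2-fold in either direction.

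Per3, a period gene that the loop can do without in mice, had 8.49 on both arrays on its brightest probe set. Of its 5 dimmer probe sets, those above the filter had 7.23 and 6.41 in KO against 7.25 and 6.37 in WT. The 3 below the filter had 6.31, 5.22 and 4.75 in KO against 6.19, 5.36 and 4.88 in WT. The differences of Per3 ran from −0.14 to 0.12 over all 6 probe sets and from −0.02 to 0.04 over the 3 above the filter, so its spread came from the dim ones.

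The cryptochromes are the main repressors of ARNTL and CLOCK, and each of their genes had a single probe set. Cry1 had 7.70 in KO and 7.78 in WT, a difference of −0.08 that 44.3% of genes above the filter reached in size. Cry2 had 9.41 in KO and 9.42 in WT, a difference of −0.01. Both values were lower in KO, by amounts within the spread between probe sets of one gene, while Per1 and Per2 had higher values. Among the 5 period and cryptochrome genes the median difference was 0.00. Per1 and Cry1, both with an E-box in the window printed above, therefore had differences of opposite sign.

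The genes of the REV-ERB receptors had small differences as well. Nr1d1 had 6.93 in KO and 6.89 in WT on its only probe set, a difference of 0.04, which 71.3% of genes above the filter reached in size. Nr1d2 had 11.55 in KO and 11.47 in WT on its brightest probe set and 4.85 in KO and 4.66 in WT on a dim one below the filter, with differences of 0.08 and 0.19. Dbp, the output gene, had 10.64 in KO and 10.69 in WT on its brightest probe set, which by its name can match other transcripts, a difference of −0.05, and 8.62 in KO and 8.61 in WT on the other. In liver and other tissues Dbp and Nr1d1 are among the transcripts with the widest daily swing, and here their brightest probe sets differed by −0.05 and 0.04. The hour of killing is not given, and a difference in clock phase between the genotypes was not tested.

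**Figure D2:**
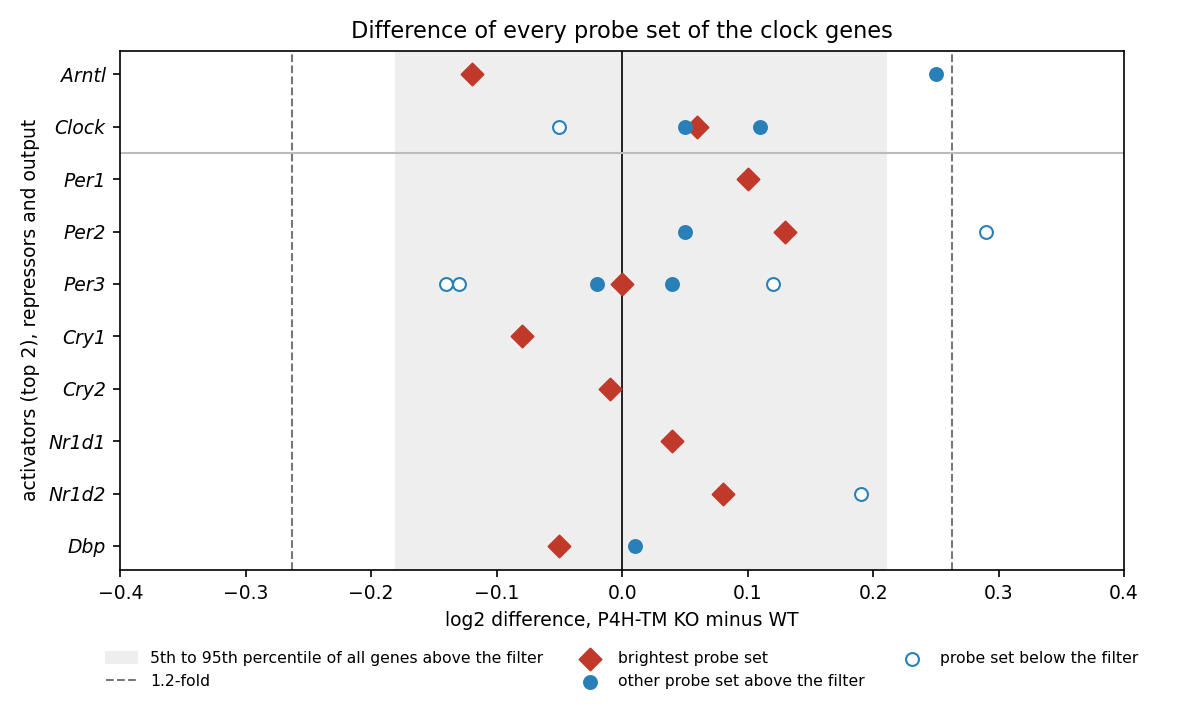
Log2 difference of P4H-TM KO minus WT for every probe set of the clock genes, with the activators in the upper rows and the repressor and output genes below the grey line. Red diamonds are brightest probe sets, filled blue circles other probe sets above the signal filter and open circles those below it; the grey band is the 5th to 95th percentile of all genes above the filter, −0.18 to 0.21, and dashed lines mark 1.2-fold. The diamonds all lie in the band, and outside it are an Arntl probe set at 0.25 and a Per2 probe set at 0.29.

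Over all 23 probe sets of the clock genes, 14 had higher values in KO, 8 had lower values and 1 was equal, with a median difference of 0.04. The 17 above the filter had a median of 0.04 and a range from −0.12 to 0.25, and the 6 below it ran from −0.14 to 0.29. Of the 5 clock genes with more than 1 probe set above the filter, 2 (Clock and Per2) had all of these on the same side of 0, and Arntl, Per3 and Dbp did not. Among all 5101 genes with more than 1 such probe set the share was 45.6%. The pooled SD of the difference between probe sets of one gene was 0.105 in these 5 clock genes and 0.101 in all 5101 genes. This SD concerns probe sets on the same arrays, not mice. The difference of Arntl, −0.12, and those of Per2, 0.13, and Per1, 0.10, were about as large as that SD, and those of the other 7 genes were smaller.

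The activators were then set beside the repressor and output genes. Arntl and Clock had a median difference of −0.03, one lower and one higher in KO, and the 8 repressor and output genes had a median of 0.02, with 4 higher, 3 lower and 1 equal in KO. The gap between these medians was −0.05. It was 0.135 with the other probe set of Arntl and all else the same, and 0.0425 with the probe sets of Arntl averaged, both chosen after the values were seen. With the probe sets of each gene averaged it was 0.0388, and with the second brightest probe set of each gene it was 0.125. Per1, Cry1, Cry2 and Nr1d1 have a single probe set and kept their values in both settings. With Arntl on its brightest probe set it was also above 0, at 0.04, when Npas2, which can take the place of Clock in the forebrain, was counted as an activator. The gap stayed below 0 with the arrays centred on their medians (−0.05), with the intensity trend removed (−0.0588) and with means in place of medians (−0.0563). The filter left it at −0.05, as all 10 genes pass it. The direction of the gap between the arms of the loop thus differed between settings, mainly with the choice of probe sets. As genes are not replicates, no test was made over them.

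Of the other transcription factors of the clock, 10 of 11 listed genes were measured and 8 of them were above the filter. In these 8, 7 had higher values in KO and 1 had a lower value, with a median of 0.125, against 50.1% higher and a median of 0.01 over all genes above the filter. None reached 1.2-fold. Nfil3, whose protein represses through the D-boxes that DBP activates, had 8.21 in KO and 8.03 in WT, a difference of 0.18, and 7.2% of genes above the filter had a difference at least as high. Rorb, a nuclear receptor that acts on RORE sequences and also marks cortical layer neurons, had 9.12 in KO and 8.96 in WT, and all 3 of its probe sets were higher in KO, by 0.06 to 0.16. Bhlhe40, which encodes a repressor (DEC1) that competes at E-boxes and answers to many stimuli, had 10.66 in KO and 10.51 in WT. Npas2 had 8.18 in KO and 8.05 in WT, with −0.08 on a dim probe set.

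The remaining genes of that list were closer to 0 or less firm. Ciart, a repressor of ARNTL and CLOCK, had 7.31 in KO and 7.19 in WT. The PAR-bZIP genes Tef and Hlf, which act on D-boxes as Dbp does, had 11.51 and 10.93 in KO against 11.40 and 10.84 in WT, differences of 0.11 and 0.09 where Dbp had −0.05. For Hlf both probe sets were higher in KO, and for Tef the dimmer ones ran down to −0.10. Rora had 9.71 in KO and 9.73 in WT on its brightest probe set, and its 9 probe sets ran from −0.02 to 0.37. Arntl2 and Bhlhe41 were below the filter, with differences of 0.05 and −0.13.

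Genes for kinases and turnover of clock proteins had a median difference of 0.02 over 11 measured genes of 13 listed, with 6 higher, 4 lower and 1 equal in KO and none at 1.2-fold. Csnk1d, the casein kinase that phosphorylates PER proteins, had 11.98 in KO and 11.91 in WT, and Gsk3b had 11.89 in KO and 11.84 in WT. Their 5 and 6 probe sets were equal or higher in KO throughout. Usp2, a deubiquitinase gene with a daily rhythm in many tissues, had 9.69 and 9.59 in KO against 9.85 and 9.76 in WT on its probe sets, differences of −0.16 and −0.17. Fbxw11, which encodes a subunit of a ubiquitin ligase that marks PER proteins, and Timeless each differed by −0.11 on their brightest probe sets. The brightest probe sets of Fbxw11 and Csnk1d can by their names match other transcripts. The next Fbxw11 probe set differed by −0.10, and those below the filter by 0.01 to 0.36. The other Timeless probe set, below the filter, differed by 0.12.

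Of 8 measured clock-controlled output genes, 2 had higher and 6 lower values in KO, with a median difference of −0.045. Cirbp, a cold-inducible RNA-binding protein gene whose daily rhythm follows body temperature, had 9.37 in KO and 9.65 in WT, a difference of −0.28, and was the single gene of the clock lists above the filter at or past 1.2-fold. A difference at least as low was found in 1.6% of genes above the filter, and Cirbp has 1 probe set. Tsc22d3, which glucocorticoids induce, had 10.80 in KO and 10.92 in WT, and Noct, a rhythmic gene named nocturnin, had 11.11 in KO and 11.21 in WT. Lonrf3 had 9.32 in KO and 9.21 in WT, and Pdk4, which encodes an inhibitory kinase of pyruvate dehydrogenase, had 7.59 in KO and 7.52 in WT.

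**Figure D3:**
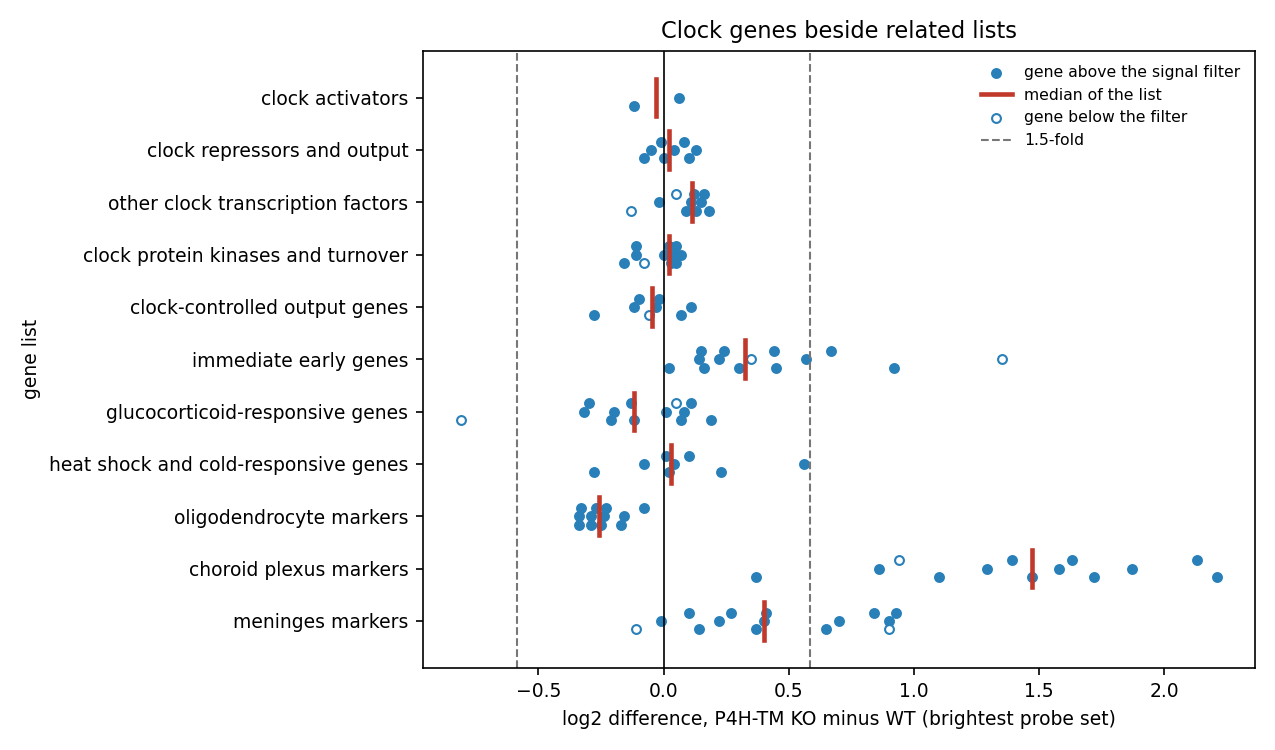
Log2 difference of P4H-TM KO minus WT on the brightest probe set, with 1 point per gene (filled above the signal filter, open below it), for the clock genes, related lists and markers of other cell types. Red bars mark list medians and dashed lines mark 1.5-fold. The clock medians lie between −0.045 and 0.115, that of the immediate early genes at 0.325 and that of the choroid plexus markers at 1.47.

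Signals that reach the period genes from outside the loop were described next. All 14 immediate early genes, which neurons switch on within minutes of activity, had higher values in KO on their brightest probe sets. Their median difference was 0.325, and 12 of them were above the filter. A dimmer probe set of Nr4a3, above the filter, differed by −0.13, and one of Sik1, below it, by −0.23. The other dimmer probe sets, of Nr4a3, Egr2 and Btg2, were higher in KO. Fos and Arc passed 1.5-fold, with 9.89 and 9.29 in KO against 8.97 and 8.62 in WT, differences of 0.92 and 0.67. Npas4 had 7.38 in KO and 6.81 in WT. Above the filter 6 of the 12 were at least 1.2-fold higher and 2 at least 1.5-fold higher, where 2.9% and 0.631% of all genes were. Per1 and Per2, at 0.10 and 0.13, had smaller differences than 13 of the 14 genes. The lowest of these were Btg2, at 0.14, and below it Sik1, at 0.02, which encodes a kinase known to limit induction of Per1 by light in mice.

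**Figure D4:**
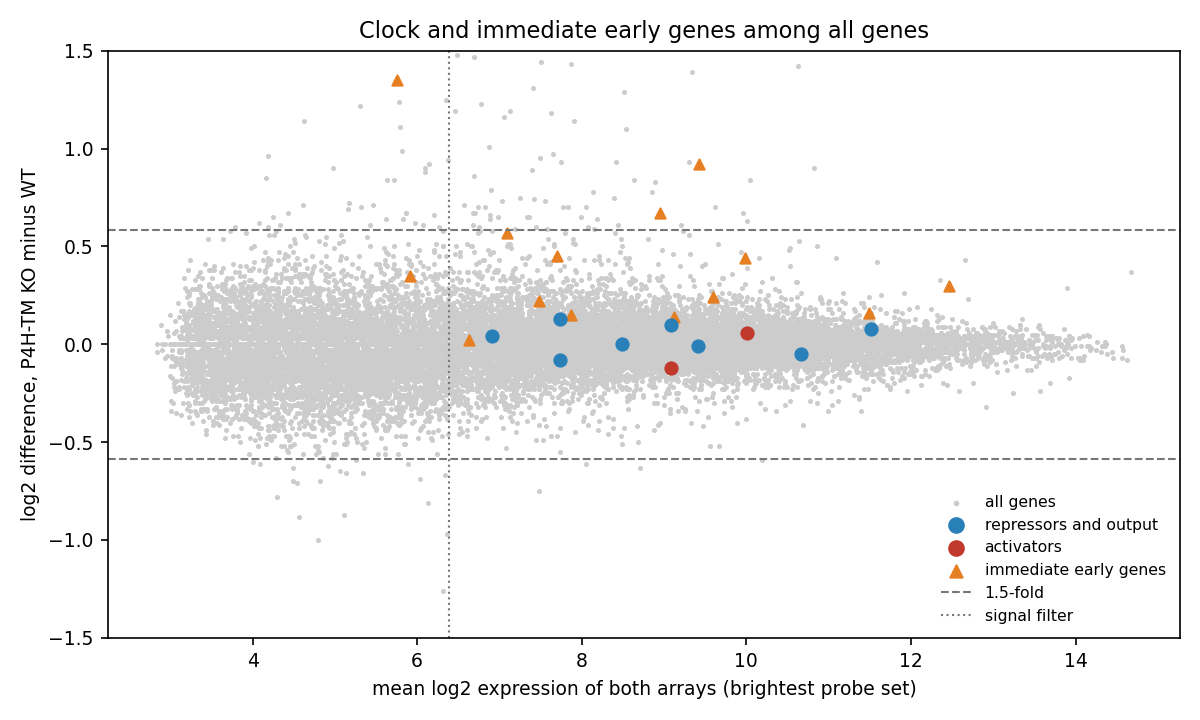
Log2 difference of P4H-TM KO minus WT against the mean log2 expression of both arrays, for the brightest probe set of all genes (grey; 13 genes beyond 1.5 on the log2 scale are not drawn), with the clock activators in red, the repressor and output genes in blue and the immediate early genes as orange triangles. The clock genes lie inside the grey cloud between −0.12 and 0.13, and the immediate early genes lie above 0, up to Fos at 0.92 and, below the signal filter, Egr2 at 1.35.

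Genes that answer to glucocorticoids were split in direction. Of 13 measured genes, 7 had lower and 6 had higher values in KO, with a median of −0.12. Fkbp5, a cofactor of the glucocorticoid receptor and one of its targets, had 9.93 in KO and 10.06 in WT, and all 3 of its probe sets were lower in KO, with differences from −0.23 to −0.13. Mt2, a metallothionein gene, and Sult1a1, a sulfotransferase gene, had 12.75 and 7.92 in KO against 13.07 and 8.22 in WT, differences of −0.32 and −0.30, while Errfi1 and Sgk1 were higher by 0.19 and 0.11. Plin4, below the filter, had 5.73 in KO and 6.54 in WT. The heat shock and cold-responsive genes had a median of 0.03 over 8 measured genes, with Hspb1 at 9.58 in KO and 9.02 in WT and Dnajb1, an HSP70 cochaperone gene, at 11.01 in KO and 10.78 in WT. Hspa1a had 9.06 in KO and 9.14 in WT. Cirbp belongs to this list as well, and Tsc22d3 and Pdk4 belong to both the output and the glucocorticoid list.

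The difference was also described over all genes with each motif. The 1124 genes above the filter with an E-box in a promoter window had a median difference of 0.01, as did the 8375 without one, and 52.0% and 50.3% of them had higher values in KO. The 46 genes with a RORE had a median of −0.04 and 41.3% higher, against 0.01 and 50.5% for those without one. The 164 genes with a D-box had a median of 0.00 and 49.4% higher, against 0.01 and 50.5% without. The 341 genes with a cyclic AMP response element had a median of 0.00 and 47.5% higher, against 0.01 and 50.6% without. These are descriptions of 1 pair of arrays, with no test.

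The arrays also differed in markers of tissues other than the neurons of the cortex. P4htm, the targeted gene, had 9.10 and 8.07 in KO against 11.05 and 9.71 in WT on its probe sets, which goes with the labels, though it was not examined whether they lie in the disrupted part of the gene. The brighter probe set of P4htm can by its name match other transcripts. Markers of excitatory neurons, with 8 of 9 measured genes above the filter, had a median difference of 0.03. All 13 measured choroid plexus markers had higher values in KO, with a median of 1.47 and a summed signal of 36820 in KO and 25290 in WT. Most of that sum is Ttr, near the top of the scale, at 29740 in KO and 23010 in WT, and the other 12 markers summed to 7082 in KO and 2282 in WT. Values of the 12 measured oligodendrocyte markers were all below WT, with a median of −0.26, and 13 of 15 meninges markers had higher values, with a median of 0.40. Astrocyte, endothelial and microglia markers had medians of −0.06, 0.08 and −0.025, interneuron markers had −0.02, and 10 markers of the suprachiasmatic nucleus and thalamus had −0.01. Of these 10 markers 6 were above the filter, and they ran from −0.27 for Prkcd to 0.44 for Grp. The 7 measured blood markers had a median of −0.69, with 5 lower in KO, S100a8 lowest at 5.69 in KO and 6.95 in WT, but 1 of them was above the filter. In bulk tissue fewer cells of a type and less RNA per cell cannot be told apart, and the part of these tissues in the clock gene values was not tested.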

How the data were processed

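RNA of 4 cortices per genotype was pooled and hybridised to 1 Affymetrix Mouse Genome 430 2.0 array each. The authors quantified intensities with GeneChip Operating System and normalised the arrays in GenePattern. RMA is named in the submitters' processing notes, and its version is not given in the sources used here. What was deposited is on the log2 scale, to 2 decimals, from 2.69 to 14.91. RMA normalises between arrays, so a shift common to all genes would not be seen, and the number of arrays limits the precision.

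Of 45101 probe sets, 34945 (controls left out) were annotated to 1 gene symbol, and 34741 of these were matched by gene number to the RefSeq table of GRCm38.p6. Each of 18193 genes was represented by its probe set with the highest mean. Counts used genes with a mean of at least 6.385, the median of all probe sets, and thresholds of 1.5-fold and 1.2-fold. The members and gene lists were chosen with earlier results of these data known. Named genes were all members, P4htm, and the 2 highest and 2 lowest genes above the filter of each clock or response list. Marker lists are given as a whole, and other genes were named after their values were seen. Alternatives were averaged, plain or second brightest probe sets, array centring, subtraction of a loess trend with intensity (span 0.3), other filters and other folds. Genes with a single probe set kept it in the averaged and second brightest settings. Calculations were tested on simulated data and used matplotlib 3.10.9, pandas 2.3.3, numpy 2.4.6 and statsmodels 0.14.6 under Python 3.11.15.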

Additional observations from a re-analysis of the deposited data

How the results depend on the processing

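No clock gene passed 1.5-fold in either direction under any alternative to the probe sets, scaling or filter, and none passed 1.2-fold on its brightest probe set. Where an alternative read other probe sets, single clock gene differences moved by less than the SD between probe sets of a gene in 10 of 14 cases. The exceptions were Arntl, at 0.065 with probe sets averaged and 0.25 on the plain or second brightest probe set, and Nr1d2, at 0.19 on its second probe set. These cases are not independent readings, as the averages include the brightest probe set. For Arntl and Dbp the plain and second brightest settings read the same probe set. The gap of activators minus repressor and output genes (−0.05) was 0.0388 with probe sets averaged, 0.115 with plain probe sets and 0.125 with second brightest ones. With Npas2 added it was 0.04. It kept its sign with trend removal and with means in place of medians, while array centring and the filter could not change it. Changing Arntl alone, chosen after seeing the data, gave 0.135 on its second probe set and 0.0425 averaged. The activator median (−0.03) was 0.0538, 0.155 and 0.15 with averaged, plain and second brightest probe sets, since Arntl is 1 of the 2 genes. With plain probe sets, which drop Cry1, the median of all clock genes (0.02) was 0.06, and that of the period and cryptochrome genes (0.00) was 0.05.

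For the other lists, the kinase and turnover median (0.02) was −0.08 with plain and −0.06 with second brightest probe sets. The glucocorticoid median (−0.12) was −0.0475 averaged, 0.01 plain and −0.09 second brightest, the heat shock and cold median (0.03) was 0.0716 averaged and 0.075 second brightest, and the immediate early median (0.325) was 0.27 above the filter. Among the markers, the interneuron median (−0.02) was 0.05 averaged, 0.02 plain and 0.11 second brightest. The excitatory neuron median (0.03) was −0.03 averaged and second brightest, and the endothelial median (0.08) was 0.04 averaged. The blood median (−0.69) was −0.22 with plain probe sets or above the filter. The choroid plexus, meninges and oligodendrocyte medians kept their signs. P4htm (−1.95) was −1.80 after averaging and −1.64 on its dimmer probe set. The cause was not tested. List medians moved by less than the probe set SD divided by the root of the list size in 89 of 123 alternatives. That count includes array centring and trend removal, which hardly act on a median. They put the median of all genes at −0.01 and 0.0014 and moved no list median past this bound. The larger moves all came from a change of probe sets or of the filter. No paired analysis was possible because each genotype has 1 array, and no array could be left out.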
